A study of Mus musculus with 5 samples.

Results

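In mouse hearts, 777 of 30965 chromatin regions (2.51%) carried more propionylated histone H3 lysine 23 (H3K23Pr) after pressure overload than after sham surgery on a diet without branched-chain amino acids (BCAA), and no more of it on a control diet. They were chosen by their average signal, the coverage averaged over a region. The log2 ratio of BCAA-free TAC over BCAA-free sham, with 1 added to both signals, had to reach a 1.5-fold increase. The same ratio on the control diet had to be at or below 0. Every average signal of the table therefore took part in the choice, and the signal values of these regions are given as a description with no test.

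All mice were male C57Bl/6J, 12 weeks old. The groups were a BCAA-free diet with transverse aortic constriction (TAC), the same diet with sham surgery, a BCAA-control diet with TAC, and the control diet with sham surgery. Diets began 4 days before surgery and went on until the hearts were taken 2 weeks after it. TAC narrows the aorta with a ligature, so that the left ventricle pumps against raised pressure. Each group was 1 library from a pool of 3 hearts, so no difference below has a replicate check and no p-value could be computed. Groups follow the sample titles, because the treatment field of 3 samples contradicts them. An input library pooled over sham and TAC hearts has no column in the table and was not used here. Approximate tags derived from the signal over all regions, in units of 1e6, came to 17.1 in BCAA-free TAC, 17.0 in BCAA-free sham, 18.9 in control diet TAC and 16.9 in control diet sham hearts. The scaling of the signal is not given in the sources used here, so these totals do not measure sequencing depth.

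Leucine, isoleucine and valine are the branched-chain amino acids, and the breakdown of isoleucine and valine yields propionyl-CoA in mitochondria. Propionyl-CoA is the donor from which acyltransferases place propionyl groups on histone lysines, a mark found mostly on chromatin that is open and transcribed. The heart is one of the tissues that oxidise BCAA, and pressure overload makes its muscle cells grow and change their gene activity.

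Few of these regions held a gene start, and their promoters are shown first because those regions span a known regulatory sequence. The signal is an average over a whole region, so it does not place the mark on the printed bases. RefSeq promoters (GRCm38.p6, the 250 bases before a start, read 5′ to 3′) lay inside 24 of the 777 regions, as 26 windows of 23 genes. The deposited annotation counts a promoter in 68 of the 777, and the sources differ: 7 of the 26 windows, those of Asb5 and Lmo7 among them, lie in regions to which the deposited annotation gives no promoter. The sequences below are those of Xirp2, Asb5 and Lmo7, which hold a match to the MEF2 element, of Mlip and Slc8a1, which hold AGATAA, and of Kcnip2, which holds none of the motifs searched. Capitals mark matches to the MEF2 element, the CArG box and AGATAA, each on both strands. They also mark CATTCC, the site of TEAD factors, on both strands and TATAAA on the strand shown. The reverse complement of AGATAA is TTATCT, and CATTCC appears as GGAATG on the other strand. A MEF2 element can contain TATAAA, as one in 2310002L09Rik does.
Xirp2 promoter, chr2:67445752-67446001, plus strand: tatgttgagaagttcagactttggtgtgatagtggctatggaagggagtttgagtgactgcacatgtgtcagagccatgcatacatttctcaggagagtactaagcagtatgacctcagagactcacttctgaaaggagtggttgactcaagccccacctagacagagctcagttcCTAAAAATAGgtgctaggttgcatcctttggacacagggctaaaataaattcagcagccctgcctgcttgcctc
Asb5 promoter, chr8:54571189-54571438, plus strand: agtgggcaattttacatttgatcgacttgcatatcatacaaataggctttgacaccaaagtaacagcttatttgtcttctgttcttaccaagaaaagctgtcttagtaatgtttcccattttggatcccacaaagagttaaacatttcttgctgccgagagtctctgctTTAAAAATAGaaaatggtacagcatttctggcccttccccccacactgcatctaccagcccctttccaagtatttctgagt
Lmo7 promoter, chr14:101840373-101840622, plus strand: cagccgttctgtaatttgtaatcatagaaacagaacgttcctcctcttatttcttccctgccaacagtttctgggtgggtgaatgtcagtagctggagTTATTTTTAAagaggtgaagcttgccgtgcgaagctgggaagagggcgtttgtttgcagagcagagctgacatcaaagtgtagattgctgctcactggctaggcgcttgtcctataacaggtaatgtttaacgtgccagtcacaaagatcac
Mlip promoter, chr9:77347857-77348106, minus strand: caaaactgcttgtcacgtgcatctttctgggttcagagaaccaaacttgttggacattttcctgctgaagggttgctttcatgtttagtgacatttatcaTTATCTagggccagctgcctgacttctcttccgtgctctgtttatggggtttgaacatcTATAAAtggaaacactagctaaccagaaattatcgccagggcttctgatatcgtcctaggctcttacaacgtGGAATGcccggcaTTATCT
Slc8a1 promoter, chr17:81738388-81738637, minus strand: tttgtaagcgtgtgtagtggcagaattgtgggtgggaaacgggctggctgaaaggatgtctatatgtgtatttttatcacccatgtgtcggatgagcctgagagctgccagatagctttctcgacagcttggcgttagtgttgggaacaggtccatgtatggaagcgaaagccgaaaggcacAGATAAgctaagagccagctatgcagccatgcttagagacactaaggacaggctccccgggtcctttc
Kcnip2 promoter, chr19:45816064-45816313, minus strand: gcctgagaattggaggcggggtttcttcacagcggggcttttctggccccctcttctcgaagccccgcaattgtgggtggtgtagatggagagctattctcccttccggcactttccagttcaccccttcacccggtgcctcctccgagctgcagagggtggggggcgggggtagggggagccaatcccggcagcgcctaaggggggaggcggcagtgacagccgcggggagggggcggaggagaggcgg

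The MEF2 element was present in 4 of the 26 windows (15.4%), against 1.65% of the 12712 RefSeq promoters that lay inside any region and 2.92% of all 32851 promoters of the table. MEF2 proteins are transcription factors of muscle genes. AGATAA, which GATA factors bind, was present in 4 of the 26 windows (15.4%), against 5.61% of the promoters inside any region. TATAAA was present in 3 (11.5%), against 3.54%, and CATTCC in 2 (7.69%), against 10.7%. No window held a CArG box, which 1.23% of the promoters inside any region held. The windows were also lower in GC content, with a median of 47.8% against 60.4%, and its part in these shares was not tested beyond the split by CpG island that follows. Among regions with a promoter and no CpG island, the MEF2 element was present in 2 of 14 windows (14.3%) against 4.02% of 1890, and AGATAA in 28.6% against 10.4%. These windows are few, and Mlip, Sorbs2 and Asb5 each contributed a pair. The Mlip pair shares 236 bases and the same AGATAA and TATAAA matches, so AGATAA rests on 3 genes and TATAAA on 2. A match is a description of the letters and not evidence of binding.

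Signal over the 777 regions was highest in the BCAA-free TAC library. The median average signal was 9.39 in BCAA-free TAC and 5.09 in BCAA-free sham hearts, and 5.77 in control diet TAC and 7.15 in control diet sham hearts. Over all 30965 regions the 4 medians lay close together, at 9.24 and 9.36 on the BCAA-free diet and at 10.2 and 9.28 on the control diet, for TAC and sham in that order. The chosen regions were thus below a typical region in 3 libraries and level with it in BCAA-free TAC. Their median mean signal over the 4 libraries was 6.83, against 9.36 for all regions.

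The median log2 ratio of TAC over sham was 0.72 on the BCAA-free diet, against -0.03 for all regions. On the control diet it was -0.18, against 0.16 for all regions. Since the control diet ratio of all regions was centred on 0.16 and not on 0, regions just above 0 were left out of the chosen set although they were below the bulk of the table. With both ratios centred on their medians, 1338 regions would have met the rule, the 777 among them. The difference between the diets had a median of 0.95 and ran between 0.60 and 2.46 on the log2 scale, against a median of -0.20 for all regions.

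**Figure D1:**
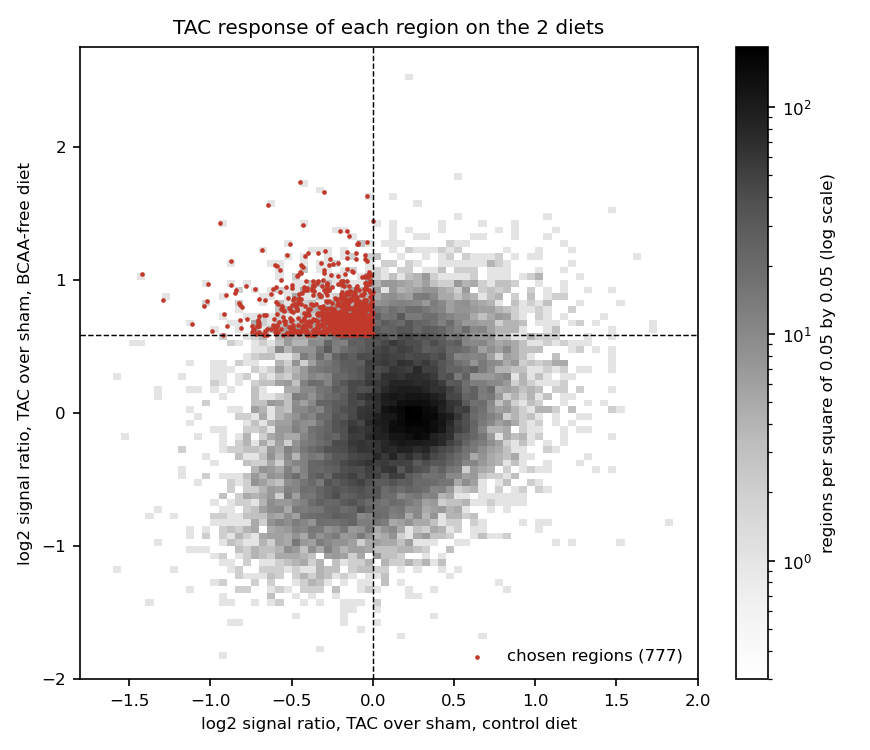
Log2 ratio of average signal (1 added), TAC over sham, on the BCAA-free diet (vertical) and on the control diet (horizontal). Grey squares count all 30965 regions on a log scale, red points are the 777 chosen regions, and dashed lines are the limits of the choice. The red points fill the corner from a 1.5-fold increase upward and from 0 leftward, with a highest BCAA-free log2 ratio of 1.74 and a lowest control diet log2 ratio of -1.42.

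On the BCAA-free diet, 2495 of all 30965 regions (8.06%) reached a 1.5-fold increase after TAC, and 9687 (31.3%) were at or below sham on the control diet. The 777 chosen regions were 31.1% of the 2495 raised ones, which is close to the 31.3% over the whole table. Over the whole table, a region raised on the BCAA-free diet was thus at or below sham on the control diet about as often as any region. Within region classes the shares differed. Without promoter or CpG island, 33.8% of raised regions were at or below sham on the control diet, against 45.7% of that class. With a promoter and no CpG island it was 21.1% against 33.4%. With a CpG island and no promoter it was 5.56% against 14.9%, and with both it was 10.1% against 7.20%. On the control diet 66 of the 777 (8.49%) were at least 1.5-fold lower after TAC, against 2.19% of all regions, in the contrast that was used to choose them. Another 330 regions were at least 1.5-fold higher on both diets.

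Approximate tag numbers set the counting error of each ratio. Median tags per chosen region were 145 in BCAA-free TAC and 79.2 in BCAA-free sham hearts, and 89.9 in control diet TAC and 113 in control diet sham hearts. The exact 95% interval (Clopper-Pearson) of the BCAA-free ratio lay above 1 in 762 of the 777 regions. That of the control diet ratio lay below 1 in 192 and included 1 in 585, and it reached 1.5 in 40. The rule set the direction of both ratios, so these counts follow in part from it. No share over all regions stands beside them. In those 585 regions counting error alone leaves the direction on the control diet undecided. These intervals cover counting error only, not differences between hearts, and they are too narrow for regions chosen by their ratio. They also take the approximate tags as counts, although the scaling of the signal is not given.

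The name given to these regions, raised by TAC without BCAA, described their BCAA-free ratio but not in every case their level against the control diet. BCAA-free TAC was the highest of the 4 libraries in 712 of the 777 regions (91.6%), against 19.8% of all regions. It was at least 1.5-fold above the control diet TAC library in 440 of them (56.6%), against 3.82% of all regions. It was at least 1.5-fold above the control diet sham library in 183 (23.6%), against 5.48% of all regions, and below that library in 64.

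The sham hearts of the 2 diets also differed in these regions. The median log2 ratio of BCAA-free sham over control diet sham was -0.33, against -0.01 for all regions. BCAA-free sham was at least 1.5-fold below control diet sham in 161 regions (20.7%), against 2.63% of all regions, and at least 1.5-fold above it in 1 region, against 2.76%. The rule favours a low BCAA-free sham and a high control diet sham signal, so these shares follow in part from the choice.

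Read against the control diet sham library, the regions fell into 3 patterns, which were defined after the values were seen. In the 183 that were also 1.5-fold above control diet sham, the median signal was 9.71 in BCAA-free TAC and 5.00 in BCAA-free sham hearts, and 4.42 in control diet TAC and 5.10 in control diet sham hearts. Here the BCAA-free TAC library stood alone above the other 3. In another 158 (20.3%), BCAA-free sham was at least 1.5-fold below control diet sham and BCAA-free TAC was not 1.5-fold above it. Their median signal was 8.67 in BCAA-free TAC and 4.50 in BCAA-free sham hearts, and 6.55 in control diet TAC and 8.44 in control diet sham hearts. In these regions BCAA-free TAC was at the level of control diet sham, and BCAA-free sham was the low library. The other 436 (56.1%) lay between these patterns, with medians of 9.66 in BCAA-free TAC and 5.48 in BCAA-free sham hearts, and 5.94 in control diet TAC and 7.20 in control diet sham hearts. BCAA-free sham was the lowest library in 505 regions and control diet TAC in 271. Ties aside, the rule lets only these libraries be the lowest, so the counts follow from the choice.

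The authors' calls, which flag the libraries in which a region was detected, leaned the same way. The chosen regions were called in BCAA-free TAC in 751 cases (96.7%, against 73.6% of all regions) and in BCAA-free sham in 220 (28.3%, against 76.1%). They were called in control diet TAC in 313 (40.3%, against 83.1%) and in control diet sham in 445 (57.3%, against 76.7%). In 311 regions (40.0%) the call came from BCAA-free TAC alone, against 4.42% of all regions, and 190 (24.5%) were called in all 4 libraries, against 58.3%. Peak signal, the highest coverage within a region, was above sham on the BCAA-free diet in 771 regions and not above sham on the control diet in 563. Both held in 559. No share over all regions stands beside these peak signal counts. Calls and peak signal come from the same libraries and are no independent support.

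Most of the regions lay away from gene starts. In 707 of the 777 (91.0%) the deposited annotation counted neither a promoter nor a CpG island, against 54.0% of all regions. Only 9 (1.16%) held both, against 31.4% of all regions. Another 59 (7.59%) held a promoter and no CpG island, against 11.6%, and 2 (0.26%) a CpG island and no promoter, against 2.99%. Regions with neither feature made up 80.5% of the 1718 other regions that were raised on the BCAA-free diet. The class without promoter or CpG island was more often raised on the BCAA-free diet, at 12.5% of its regions, and more often at or below sham on the control diet, at 45.7%. For regions with both features these shares were 0.92% and 7.20%.

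**Figure D2:**
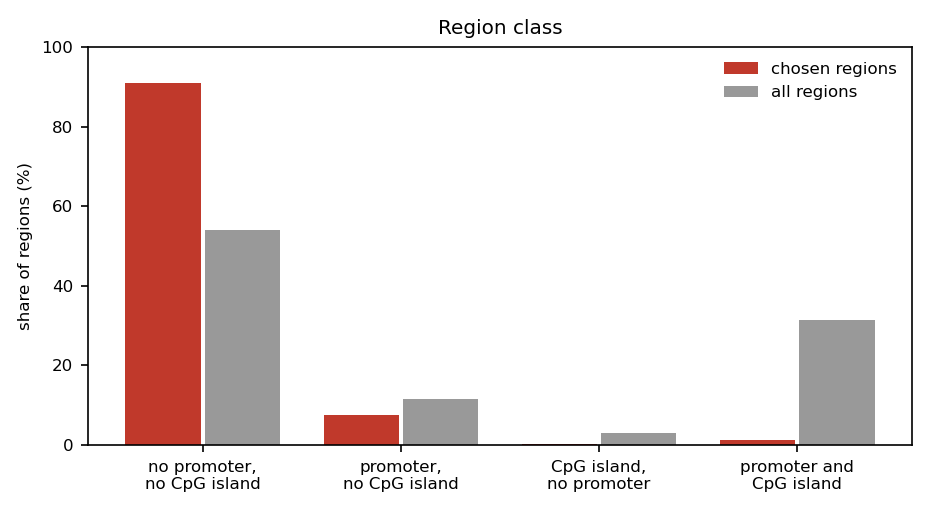
Share of regions in each class (%), with the 777 chosen regions in red and all 30965 regions in grey. Regions without either feature made up 91.0% of the chosen and 54.0% of all regions, and those with both made up 1.16% and 31.4%.

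The regions were also short and low in signal. Their median length was 3599 bp, against 5599 bp for all regions, and they covered 4.18 of 290.1 Mb. They ran between 399 and 73999 bp, and 96 were 10 kb or longer. The share of chosen regions was 4.49% among the 7742 shortest regions of the table and 1.15% among the 7741 longest. It was 5.41% among the 7742 with the lowest mean signal and 0.09% among the 7741 with the highest. Only 125 (16.1%) reached the median mean signal of the table. A ratio of low signals has a wide counting error, and its part in this pattern was not tested.

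Within genes, the regions lay far inside long genes. The annotation put 458 of the 777 (58.9%) inside a gene, against 60.5% of all regions, and gave 258 (33.2%) no gene, against 22.0%. Of the 487 pairs of a chosen region and a gene around it, 434 (89.1%) lay over 10 kb from the start, against 52.4% over all pairs. Their median distance from the start was 57.4 kb, against 12.2 kb. Genes with a chosen region inside them spanned a median of 135 kb (GRCm38.p6), against 31.1 kb for all genes with a region inside, and 64.2% spanned at least 100 kb, against 18.1%. These distances and spans are set beside all regions only, and not beside other regions without a promoter, the class of most chosen regions. Whether a region lay in an exon or an intron was not analysed here.

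Altogether 502 genes were assigned to the regions, of which 466 matched a RefSeq symbol and 425 of these code for protein. Of the 502, 434 had 1 such region, 45 had 2 and 23 had at least 3. The regions lay side by side more often than single regions of the table do: 193 of the 777 (24.8%) were next to another chosen region in the table, and 4.77% of all regions were next to a chosen one. Shares per chromosome ran between 1.24% on chromosome 17 and 3.83% on chromosome X, with 0 of 5 regions on chromosome Y.

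The genes at which muscle cells release calcium were among those with chosen regions. Trdn codes for triadin, which anchors the calcium store protein calsequestrin to the release channel in the sarcoplasmic reticulum. It held 2 of the 777 regions among its 4. The one near its start (chr10:33082000-33093799, mm10, 4416 bp into the gene, with a promoter and no CpG island) had an average signal of 11.2 after TAC and 5.53 after sham on the BCAA-free diet, and 6.25 after TAC and 6.81 after sham on the control diet. The BCAA-free TAC library was thus well above the other 3. Its ratio of TAC over sham was 2.03 (95% counting interval 1.76 to 2.34) on the BCAA-free diet and 0.92 (0.79 to 1.07) on the control diet.

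The other Trdn region (chr10:33124800-33127599, 42716 bp into the gene, with neither feature) had a signal of 8.62 after TAC and 4.96 after sham on the BCAA-free diet, and 5.18 after TAC and 8.03 after sham on the control diet. Here BCAA-free TAC and control diet sham were both high. The ratio was 1.74 (1.26 to 2.41) on the BCAA-free diet and 0.64 (0.46 to 0.89) on the control diet. Both Trdn regions that were not chosen were also higher after TAC on the BCAA-free diet. The one 14916 bp into the gene had 6.66 after TAC and 3.83 after sham on that diet, and 4.13 after TAC and 3.60 after sham on the control diet, which put its control diet ratio above 0. The one 171816 bp into the gene had 14.7 and 9.65, and 4.96 and 9.24, in the same order, and missed the 1.5-fold limit with a log2 ratio of 0.56.

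Ryr2 codes for the calcium release channel itself. All 5 of its regions were raised at least 1.5-fold on the BCAA-free diet, and 1 was chosen (chr13:11923400-11930399, 180046 bp into the gene). It had 7.54 after TAC and 4.47 after sham on the BCAA-free diet, and 3.72 after TAC and 4.69 after sham on the control diet. The ratio was 1.69 (1.36 to 2.09) on the BCAA-free diet. Camk2d, a calcium-dependent kinase that phosphorylates this channel, had a chosen region (chr3:126714400-126719999) with 5.93 after TAC and 3.51 after sham on the BCAA-free diet, and 2.50 after TAC and 3.72 after sham on the control diet. BCAA-free TAC was the highest and control diet TAC the lowest library in both of these regions. On the control diet the ratio was 0.79 (0.62 to 1.02) in the Ryr2 region and 0.67 (0.48 to 0.94) in the Camk2d region. The other Camk2d regions missed the 1.5-fold limit, with BCAA-free log2 ratios between 0.21 and 0.50.

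Calcium entry and extrusion genes had chosen regions as well. Slc8a1, the sodium-calcium exchanger that removes calcium from the cell, had a chosen region over its start (chr17:81728600-81744199, the one with the promoter printed above). Its signal was 11.2 after TAC and 5.99 after sham on the BCAA-free diet, and 6.71 after TAC and 7.15 after sham on the control diet. The ratio was 1.87 (1.66 to 2.11) on the BCAA-free diet and 0.94 (0.82 to 1.07) on the control diet. It was 1 of 2 chosen among the 13 regions of Slc8a1.

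The L-type calcium channel, through which each beat's calcium enters, was represented by 3 of its subunits. Cacnb2, a regulatory beta subunit, had 4 chosen regions of 7, and the strongest (chr2:14820600-14841999) had 13.8 after TAC and 8.01 after sham on the BCAA-free diet, and 8.63 after TAC and 8.94 after sham on the control diet. In another Cacnb2 region (chr2:14639800-14645399), BCAA-free TAC, at 6.86, was below control diet sham, at 7.79. Cacna1c, the pore subunit, had 3 chosen regions, and most of its regions were not chosen. The one over its CpG-island start was raised on the BCAA-free diet, but a control diet log2 ratio of 0.21 kept it out. Of the chosen regions, the one with a control diet ratio nearest to 1 (chr6:118858400-118878199) had 9.33 after TAC and 5.81 after sham on the BCAA-free diet. On the control diet it had 6.88 after TAC and 6.90 after sham. Cacna2d1, the alpha-2/delta subunit, had the most chosen regions of any gene and is described further on.

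Potassium channel genes had chosen regions at their starts and inside them. Kcnip2, an accessory subunit of the transient outward channel, had one over its CpG-island start (chr19:45811000-45832199), with 14.0 after TAC and 8.15 after sham on the BCAA-free diet, and 10.4 after TAC and 11.8 after sham on the control diet. Control diet sham was the second highest library here. Kcnd3, the pore subunit of the same channel, had 15.0 after TAC and 9.35 after sham on the BCAA-free diet, and 9.51 after TAC and 10.2 after sham on the control diet (chr3:105500200-105524199). Kcnj3, a subunit of the acetylcholine-gated channel picked out after its values were seen, had 9.26 after TAC and 5.23 after sham on the BCAA-free diet, and 7.23 after TAC and 8.11 after sham on the control diet at its start (chr2:55432000-55440599).

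**Figure D3:**
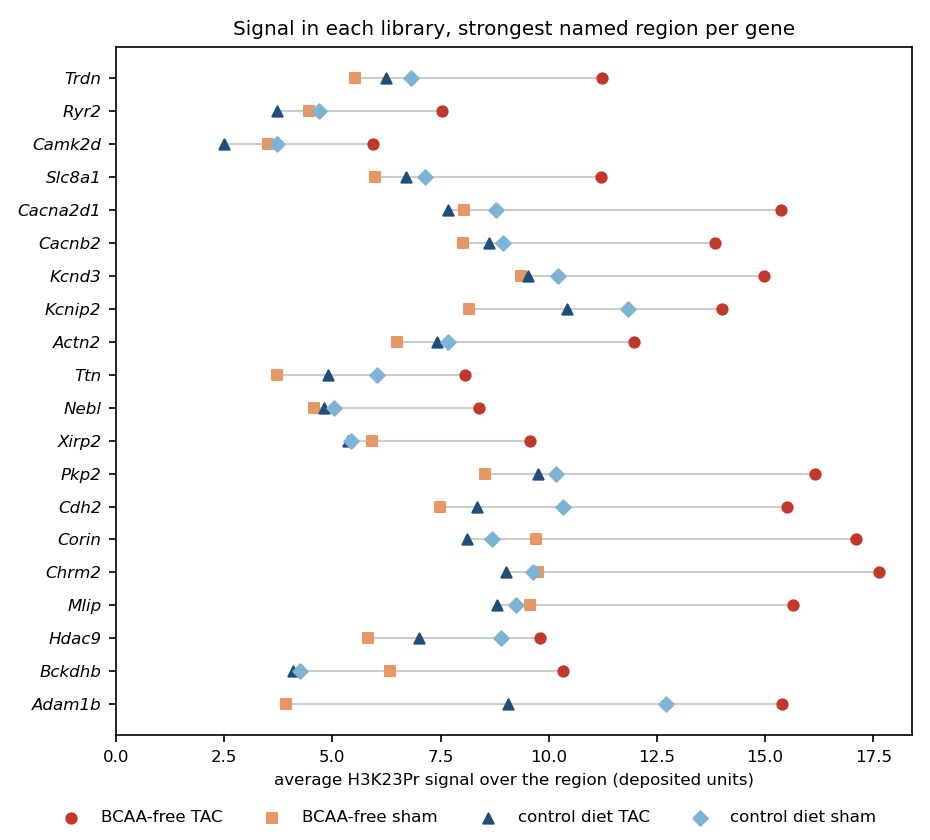
Average H3K23Pr signal (horizontal, deposited units) of the strongest named region of 20 genes, 1 point per library. BCAA-free TAC is the highest point in every row, for example 11.2 for Trdn, and BCAA-free sham is the lowest in, for example, Trdn, Ttn and Adam1b.

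Genes of the contractile apparatus had 6 chosen regions among 72. Actn2, the alpha-actinin of the Z-disc, had 12.0 after TAC and 6.50 after sham on the BCAA-free diet, and 7.41 after TAC and 7.67 after sham on the control diet over a region of 25799 bp (chr13:12303200-12328999). Its ratio was 1.84 (1.68 to 2.01) on the BCAA-free diet. Ttn, which codes for the giant spring protein titin, had 8.08 after TAC and 3.71 after sham on the BCAA-free diet, and 4.89 after TAC and 6.02 after sham on the control diet in 1 of its 3 regions (chr2:76806000-76812399). The ratio was 2.18 (1.72 to 2.76) on the BCAA-free diet and 0.81 (0.65 to 1.02) on the control diet. In both of these regions BCAA-free sham was the lowest library and control diet sham the second highest. In the Actn2 regions that were not chosen, control diet sham was the lowest library instead.

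Xirp2, an actin-binding protein of the intercalated disc, had a chosen region over its start (chr2:67445400-67448799, with the MEF2 match printed above) with 9.56 after TAC and 5.92 after sham on the BCAA-free diet, and 5.36 after TAC and 5.44 after sham on the control diet. BCAA-free TAC alone stood apart, and the ratio was 1.62 (1.23 to 2.13) on the BCAA-free diet. Nebl, the Z-disc protein nebulette, had 8.39 after TAC and 4.57 after sham on the BCAA-free diet, and 4.80 after TAC and 5.04 after sham on the control diet (chr2:17453800-17461199).

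The intercalated disc holds the junctions that join heart muscle cells end to end. Genes of the disc and of the cytoskeleton, taken as 1 list, had 11 chosen regions among 66. Both regions of Pkp2, which codes for the desmosome protein plakophilin-2, were chosen. The one over its CpG-island start (chr16:16212200-16231999) had 16.2 after TAC and 8.54 after sham on the BCAA-free diet, and 9.76 after TAC and 10.2 after sham on the control diet, with a ratio of 1.89 (1.73 to 2.07) on the BCAA-free diet and 0.96 (0.87 to 1.05) on the control diet. The inner one (chr16:16251800-16262999) had 15.2 after TAC and 8.36 after sham on the BCAA-free diet, and 9.30 after TAC and 9.50 after sham on the control diet. In both Pkp2 regions BCAA-free TAC was above the other 3 libraries. Cdh2, the N-cadherin of the intercalated disc, had 5 chosen regions of 8. Its strongest, 95050 bp into the gene, had 15.5 after TAC and 7.49 after sham on the BCAA-free diet, and 8.34 after TAC and 10.3 after sham on the control diet, a ratio of 2.07 (1.84 to 2.33) on the BCAA-free diet. Dsc2 (desmocollin 2), Lama2 (a laminin chain) and Sgcd (delta-sarcoglycan) also had chosen regions.

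These genes belong to 5 lists of cardiomyocyte genes: markers, the calcium release unit, ion channels with calcium reuptake, the sarcomere, and the intercalated disc with the cytoskeleton. Of the 313 regions assigned to them, 44 (14.1%) were chosen, against 2.51% of all regions, in 21 of 93 genes. On the BCAA-free diet 98 of the 313 (31.3%) were raised at least 1.5-fold, against 8.06% of all regions. On the control diet 135 of them (43.1%) were at or below sham, against 31.3%. Of the 98 raised regions, 44.9% were chosen, against 31.1% of all raised regions. That share is close to the 43.1% of the 313 at or below sham on the control diet, whether raised or not. The lists overlap, and their median log2 ratio over the 313 regions was 0.39 on the BCAA-free diet and 0.07 on the control diet. They were drawn up with earlier results of these data known, so these shares are a description only. Several of the 44 chosen regions came from the same genes, Cacna2d1, Cdh2 and Cacnb2 among them.

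By list, 20 of 119 ion channel and reuptake regions (16.8%) and 11 of 66 intercalated disc and cytoskeleton regions (16.7%) were chosen. So were 13 of 84 cardiomyocyte marker regions (15.5%), 4 of 38 calcium release unit regions (10.5%) and 6 of 72 sarcomere regions (8.33%). The sarcomere list had a share of raised regions (29.2%) like that of the disc list (28.8%). Its median control diet log2 ratio was higher, at 0.19 against -0.05 for the disc list, and 6 of its 21 raised regions were chosen, against 11 of 19 for the disc list. The fetal and stress gene list showed this more clearly: 11 of its 41 regions (26.8%) were raised on the BCAA-free diet, its median control diet log2 ratio was 0.29, and 2 regions, both of Xirp2, were chosen.

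None of the 179 regions assigned to endothelial, fibroblast, smooth muscle, macrophage and neuronal marker genes was chosen, against 2.51% of all regions. Endothelial marker regions were raised in 8 of 52 cases (15.4%), above the 8.06% of the table, but 8 of the 52 were at or below sham on the control diet and none of these was raised. Fibroblast marker regions had a median log2 ratio of -0.57 on the BCAA-free diet, with 1 of 34 raised. Adipocyte markers had 1 chosen region of 21, in Pparg, the nuclear receptor of fat cells. Extracellular matrix genes had 1 of 80, in Col5a2, a collagen chain, where the interval of the BCAA-free ratio (0.71 to 4.20) included 1.

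**Figure D4:**
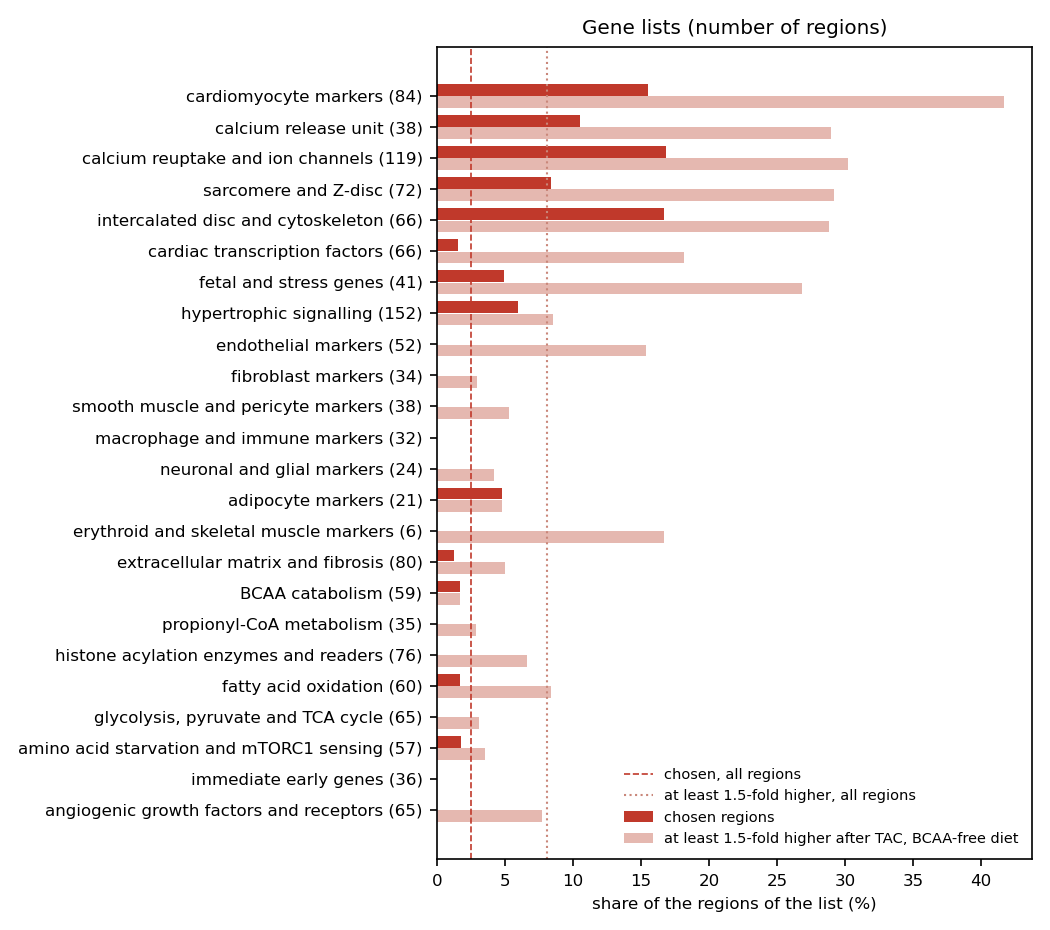
Share of the regions of each of 24 gene lists (%), with the number of regions in brackets. Dark bars are chosen regions and light bars are regions raised at least 1.5-fold on the BCAA-free diet, and the dashed and dotted lines give the same shares over all regions (2.51% and 8.06%). The 5 cardiomyocyte lists at the top run between 8.33% and 16.8% chosen, and 11 lists have none.

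Marker signal of whole cell types also differed between the libraries. The strongest regions of the 24 cardiomyocyte markers that had a region (25 in the list) summed to 430.3 in BCAA-free TAC and 301 in BCAA-free sham hearts, and to 345 in control diet TAC and 302 in control diet sham hearts. The 20 fibroblast markers summed to 231 in BCAA-free TAC and 344 in BCAA-free sham hearts, and to 279.7 in control diet TAC and 264 in control diet sham hearts. Cardiomyocyte markers were thus highest, and fibroblast markers lowest, in the library that stood out in the chosen regions. Macrophage and neuronal markers were lowest in BCAA-free TAC too, at 148 and 155, the neuronal sum close to the 157 of BCAA-free sham hearts. Smooth muscle markers were lowest in BCAA-free sham hearts, at 203. The 24 endothelial markers summed to 452 in BCAA-free TAC and 359 in BCAA-free sham hearts, and to 545 in control diet TAC and 443 in control diet sham hearts. No marker of these lists that had a region was at 0, and Myl7 of the cardiomyocyte list had no region. In whole hearts a larger share of cells of a type and more mark per cell cannot be told apart, and the part of these marker differences in the chosen regions was not tested. The cardiomyocyte marker list shares 7 genes with the chosen regions, so its sums are not independent of them.

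Several genes carried runs of chosen regions. In the 13 genes with at least 4, 57 of 147 regions were chosen, 36 more were raised on the BCAA-free diet without being chosen, and 5 were lower after TAC on that diet. The region nearest the start was itself chosen in 3 of the 13. It held a promoter and a CpG island in 8, and it was above sham on the control diet in 9. Over all 18161 genes the nearest region was above sham on the control diet in 86.8% and raised 1.5-fold on the BCAA-free diet in 2.96%, while in the 13 genes it was raised in 6 (46.2%). The 13 genes were picked for their chosen regions, which are raised by the rule and include the nearest region in 3 of them. The shares in the 13 genes thus follow in part from the choice.

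Cacna2d1 shows this layout best. Its region over the CpG-island start, 608 bp into the gene, had 16.6 after TAC and 16.4 after sham on the BCAA-free diet, and 17.9 after TAC and 14.9 after sham on the control diet. All 4 libraries were high and close together at that start. Farther inside, 6 of the other 9 regions were chosen, between 26808 and 106708 bp from the start. The strongest of them (chr5:16003400-16011399) had 15.4 after TAC and 8.04 after sham on the BCAA-free diet, and 7.68 after TAC and 8.78 after sham on the control diet, with a BCAA-free ratio of 1.91 (1.66 to 2.22). BCAA-free TAC came near the level of the start there, while the other 3 libraries were well below it. The pattern did not run through the whole gene: the region 113008 bp in had 5.69 after TAC and 11.0 after sham on the BCAA-free diet, and 7.44 after TAC and 9.37 after sham on the control diet.

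Chrm2, the muscarinic receptor through which the vagus nerve slows the heart, had all 7 of its regions raised on the BCAA-free diet and 5 chosen. Its CpG-island start had 16.4 after TAC and 9.89 after sham on the BCAA-free diet, and 10.4 after TAC and 9.88 after sham on the control diet, a control diet log2 ratio of 0.07 that kept it out. Its strongest chosen region (chr6:36506800-36510599) had 17.6 after TAC and 9.76 after sham on the BCAA-free diet, and 9.02 after TAC and 9.63 after sham on the control diet. BCAA-free TAC was thus above the other libraries in all 7 regions, with control diet log2 ratios between -0.36 and 0.10. Mlip, which codes for a lamin-interacting protein of muscle, also had all 7 regions raised and 4 chosen, the one over its start (chr9:77338200-77355399) with 15.6 after TAC and 9.56 after sham on the BCAA-free diet, and 8.80 after TAC and 9.23 after sham on the control diet.

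**Figure D5:**
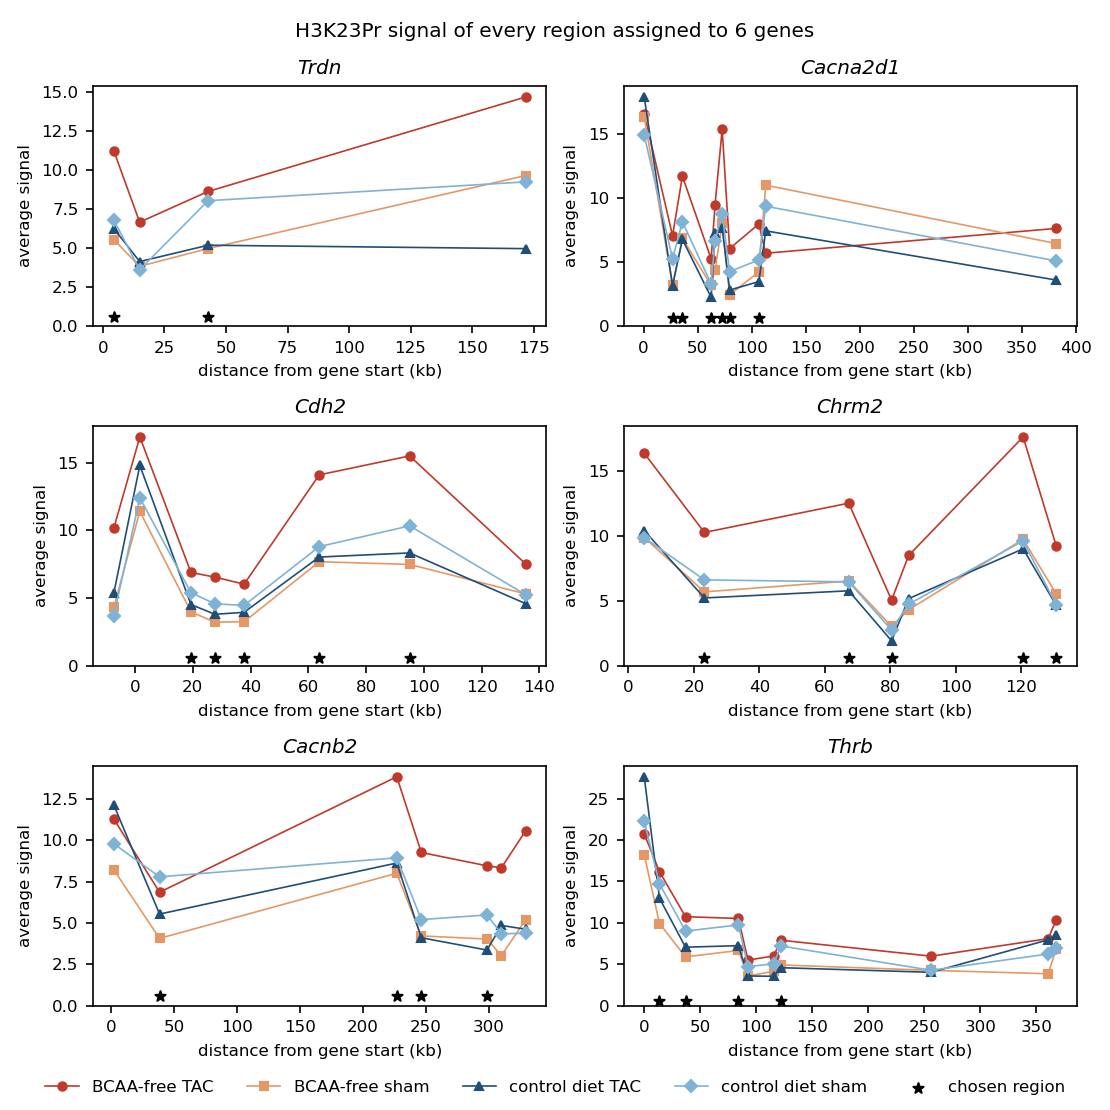
Average signal (vertical, deposited units) of every region assigned to Trdn, Cacna2d1, Cdh2, Chrm2, Cacnb2 and Thrb against the distance of the region from the gene start in kb (horizontal), 1 line per library, with stars under the chosen regions. At the starts of Cacna2d1 and Thrb all 4 libraries are high and BCAA-free TAC is not the highest, while inside the genes it is highest at each starred region except the first one of Cacnb2.

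Thrb, a thyroid hormone receptor also picked out after its values were seen, resembled Cacna2d1, with 4 chosen regions of 10. Its start had 20.7 after TAC and 18.2 after sham on the BCAA-free diet, and 27.6 after TAC and 22.3 after sham on the control diet. The first chosen region, 13839 bp in, had 16.2 after TAC and 9.93 after sham on the BCAA-free diet, and 13.0 after TAC and 14.7 after sham on the control diet. In the chosen regions of Thrb the control diet sham library was the second highest. Pde4b, a phosphodiesterase that degrades cAMP, had 5 chosen regions of 16, with BCAA-free ratios between 1.72 and 2.28. The other genes with at least 4 were Cdh2 and Cacnb2, Sorbs2, a Z-disc adaptor, Sox6, a transcription factor, Pcdh7, a protocadherin, Pip5k1b, a lipid kinase, Nav2 and Sh3rf2.

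Among 152 regions of hypertrophic signalling genes 9 (5.92%) were chosen, against 2.51% of all regions. They lay in Adra1a, an adrenergic receptor, Hdac9, a histone deacetylase that restrains MEF2, Pde4d, a phosphodiesterase, and Camk2d. Hdac9 had 3 of its 4 regions chosen. One of them (chr12:34451400-34453799) had 11.0 after TAC and 6.03 after sham on the BCAA-free diet, and 5.72 after TAC and 8.80 after sham on the control diet, a ratio of 0.65 (0.46 to 0.91) on the control diet. Control diet sham was again the second highest library. Adra1a had 10.6 after TAC and 6.64 after sham on the BCAA-free diet, and 7.39 after TAC and 8.75 after sham on the control diet (chr14:66656400-66668999).

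Metabolic gene lists had few chosen regions, at shares near or below the 2.51% of all regions. Of 59 regions of BCAA breakdown genes 1 was chosen and of 60 regions of fatty acid oxidation genes 1, while none of 35 propionyl-CoA regions, 76 histone acylation regions or 65 glycolysis and TCA cycle regions was. The BCAA region lay in Bckdhb (chr9:83961200-83972999), a subunit of the dehydrogenase that commits BCAA to breakdown, with 10.3 after TAC and 6.34 after sham on the BCAA-free diet, and 4.09 after TAC and 4.24 after sham on the control diet. Both BCAA-free libraries were above both control diet libraries there. Bckdhb was not raised as a whole, since 4 of its 6 regions were lower after TAC on the BCAA-free diet. Ppargc1a, a coactivator that drives mitochondrial gene expression, had 13.3 after TAC and 8.23 after sham on the BCAA-free diet, and 8.34 after TAC and 9.26 after sham on the control diet (chr5:51525600-51558599).

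A few other lists had a single chosen region. Esrrg, a nuclear receptor of oxidative metabolism, held the 1 chosen region among the 66 of the cardiac transcription factor list, with 6.58 after TAC and 3.04 after sham on the BCAA-free diet, and 3.01 after TAC and 3.34 after sham on the control diet. The amino acid starvation list had a chosen region shared by Chac1, a glutathione-degrading enzyme, and Ino80, a chromatin remodeller (chr2:119349600-119371399). It had 16.3 after TAC and 10.4 after sham on the BCAA-free diet, and 12.7 after TAC and 12.7 after sham on the control diet, so its control diet ratio was just at the limit. None of 36 immediate early gene regions and none of 65 regions of angiogenic factors was chosen, in lists so small that the 2.51% of all regions comes to few regions.

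The largest BCAA-free ratio among regions of at least median signal lay upstream of Adam1b (chr5:121506000-121507999, at a deposited distance of -4019 bp). It had 15.4 after TAC and 3.92 after sham on the BCAA-free diet, and 9.05 after TAC and 12.7 after sham on the control diet. BCAA-free sham was far below the other libraries there, and the ratio was 3.93 (2.70 to 5.88) on the BCAA-free diet. With the further conditions of an assigned gene and the same directions by peak signal, the next 7 regions lay in Aff3, Cdh2, Cacna2d1, Sh3rf2, Akap9, Rab3b and Zfp568, with BCAA-free ratios between 1.85 and 2.15. Rab3b, Ghr, Gm10465 and a second region of Sh3rf2 had, with Adam1b and Cdh2, the largest differences between the diets. Ghr, the growth hormone receptor, had 17.0 after TAC and 9.64 after sham on the BCAA-free diet, and 7.61 after TAC and 11.1 after sham on the control diet (chr15:3331200-3334399).

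The strongest chosen region by mean signal lay in Prtg (chr9:72900800-72903599), with 23.1 after TAC and 13.6 after sham on the BCAA-free diet, and 17.9 after TAC and 21.8 after sham on the control diet. In this region control diet sham nearly equalled BCAA-free TAC. Mylk4, a kinase of the myosin light chain kinase family, had 19.9 after TAC and 12.3 after sham on the BCAA-free diet, and 12.8 after TAC and 13.7 after sham on the control diet (chr13:32758400-32780599). Pebp4, 2310016G11Rik, Atf7, Tmem131, AU019990 and Pvt1 were the others among the 8 strongest chosen regions with an assigned gene, with BCAA-free ratios between 1.55 and 1.66. The longest were in Lmo7 (73999 bp), Fign (42799 bp) and Sorbs2 (41199 bp).

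Of the 258 regions without an assigned gene, the one with the highest mean signal, picked out after its values were seen, lay on chromosome 1 (chr1:144016400-144020599). It had 22.6 after TAC and 12.9 after sham on the BCAA-free diet, and 11.6 after TAC and 11.6 after sham on the control diet. BCAA-free TAC stood alone here as it did in Corin, which codes for the protease that activates atrial natriuretic peptide. The main Corin region (chr5:72419000-72457799) had 17.1 after TAC and 9.72 after sham on the BCAA-free diet, and 8.11 after TAC and 8.68 after sham on the control diet. One microRNA hairpin of RefSeq, Mir6399 within Eif4g3, lay inside a chosen region, which had 12.4 after TAC and 6.06 after sham on the BCAA-free diet, and 9.19 after TAC and 9.37 after sham on the control diet.

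The limits of the choice cut through a continuous spread. Just inside the 1.5-fold limit were regions of Tdp2, Auts2 and Cacna2d1, with BCAA-free log2 ratios of 0.58, 0.58 and 0.59, and just outside it were regions of Nup210, Enah and Ppp1r3a, at 0.58 each. Just inside the control diet limit were regions of Chac1, 2310016G11Rik and Cacna1c, with ratios of 1.00, 1.00 and 1.00, and just outside it were regions of Pms1, Fgf20 and Trabd2b, also at 1.00. Trabd2b had 18.4 after TAC and 11.4 after sham on the BCAA-free diet, and 12.2 after TAC and 12.2 after sham on the control diet, which is the shape of many chosen regions.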

How the data were processed

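H3K23Pr was measured by ChIP-seq in 4 libraries of mouse heart, grouped by their titles. The authors deposited 1 table of merged regions with an average and a peak signal (coverage) per library, annotation and log2 ratios. Per the submitters' processing notes, BWA, MACS2 and mm10 are listed, with no version or role given. The scaling between libraries is not given in the sources used here. The log2 ratios deposited by the authors equal plain ratios of average signal (largest deviation 8.88e-16) and served only that comparison.

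Ratios were recomputed with a pseudocount of 1, which pulls the ratios of low signals toward 1. Plain folds of single regions carry an exact 95% interval from approximate tags (average signal times length over 224, the relation in the deposited maximum tag column), for counting error only. Regions at 1.5-fold were counted, and shares are set beside the same over all 30965 regions. The table names no build in its header; distances recomputed from GRCm38.p6 starts lay within 200 bp of the deposited ones for 72.9% of 33594 pairs. Python 3.11.15, numpy 2.4.6, pandas 2.3.3, scipy 1.17.1 and matplotlib 3.10.9 were used, after a test on simulated data.

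The named regions are, with an assigned gene, the 8 highest ratios with the same directions by peak signal and the 6 largest differences between diets, both at or above median mean signal, the 8 strongest, all Trdn regions, up to 4 per gene list, the 6 genes with most regions, those next to the limits and the 3 longest. The regions and the 24 gene lists were chosen with earlier results of these data known. Alternatives were pseudocounts of 0.1 and 5, peak signal, centring, minimum signal or tags, a 2-fold limit and another sham library.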

Additional observations from a re-analysis of the deposited data

Results flagged for a closer look

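The median log2 ratio of TAC over sham over the 777 regions was 0.72 on the BCAA-free diet and -0.18 on the control diet. The opposite directions drew attention, but they are fixed by how the regions were chosen. The difference between the diets was not tested, because each group has 1 library.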

How the results depend on the processing

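Each group was 1 pool, so spread between hearts is unknown, and low signals limit most single ratios. No paired analysis was possible because each group has 1 library and the groups share no replicate numbers. For the same reason no library could be left out. The 777 regions were 1002 with a pseudocount of 0.1, 755 with at least 100 tags and 887 by peak signal, of which 397 were shared (51.1% of the 777). Below, the medians are log2 ratios in the order TAC over sham on the BCAA-free diet, TAC over sham on the control diet, BCAA-free over control diet in TAC hearts and in sham hearts. In the main setting they were 0.72, -0.18, 0.63 and -0.33. Counts are of regions without promoter or CpG island, within a gene, in the 5 cardiomyocyte lists, and named, and were 707, 458, 44 and 77.

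With a pseudocount of 0.1 the medians were 0.76, -0.21, 0.67 and -0.36. A pseudocount of 5 left 146 regions, with medians of 0.64, -0.12, 0.53 and -0.31 and counts of 130, 82, 11 and 22. Peak signal gave medians of 0.77, -0.21, 0.55 and -0.51, with 29 cardiomyocyte and 39 named regions. Centring gave 1338 regions, medians of 0.72, -0.23, 0.74 and -0.28, and counts of 1189, 748 and 70, with all 77 named regions kept. A mean signal at or above the median left 125 regions, medians of 0.69, -0.10, 0.53 and -0.29, and counts of 103, 67 and 10. A 2-fold limit left 61 regions, medians of 1.13, -0.25, 0.77 and -0.64, and counts of 53, 31 and 2.

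Setting BCAA-free TAC against control diet sham in place of BCAA-free sham, an alternative chosen after seeing the data, gave 261 regions, of which 183 were among the 777. Medians were 0.71, -0.12, 0.90 and 0.034, so the ratio of the sham hearts turned its sign, and counts were 239, 155, 18 and 25. With the sham library exchanged, BCAA-free sham no longer enters the choice.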
